A study of Homo sapiens with 13 samples.

Results

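Tumour cells high in hypoxia genes were the 25% of cells with the highest level of 8 genes that low oxygen induces, taken within each of 6 human breast cancer xenografts. There were 374 such cells of 1482 cells with at least 2000 detected genes, and of 1569 cells in all. They were set against the 374 cells in the lowest 25% of the same tumours. The score of a cell was its mean log2(CPM + 1) over NDRG1, CA9, VEGFA, ADM, BNIP3, ANKRD37, PDK1 and EGLN3, where CPM is counts per 1000000 counts of the cell, and all 8 genes were in the table. The cells were chosen by the measured levels of these 8 genes, so their levels in high and low cells are given without a test.

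The tumours grew from BM1, which was derived from the breast cancer line MDA-MB-231 and homes to bone. RKIP tumours came from BM1-RKIP cells, which carry the S153E form of RKIP, an inhibitor of RAF kinase signalling encoded by PEBP1. CTRL tumours came from BM1-VC cells, which carry the vector. Both kinds of cell grew in a mammary fat pad of mice of an athymic nude strain, which lack T cells, and tumours were taken 3 weeks later. There were 3 tumours of each kind, numbered 1 to 3 here in an arbitrary order. Tumours whose names end alike share a number, called an experiment here. The sample titles name CTRL and RKIP tumours together in each of 3 replicates. No label says which name ending belongs to which replicate, or whether tumours with the same ending were processed together. RKIP and vector cells are separate lines, so a difference between the lines and an effect of the construct cannot be told apart. The cells of the arms also lay in different chip columns, so an effect of chip column cannot be told apart from these either. The suspensions were depleted of mouse cells and of dead cells before capture, and the labels do not say whether the transgenic cells were 1 clone.

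In cells short of oxygen the prolyl hydroxylases that mark HIF-1α and HIF-2α for destruction lose activity. The stabilised factors pair with ARNT, bind DNA at a short core sequence and raise genes for glucose uptake, glycolysis, pH control, blood vessel growth, matrix remodelling and mitophagy. Solid tumours commonly contain such regions away from vessels, and carbonic anhydrase IX, encoded by CA9, is a widely used marker of them.

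Promoters are shown to compare genes with and without ACGTG, a common form of the HIF core. CA9 and BNIP3 are score genes with a match, LDHA, LOX and PGK1 had the most matches among genes that rose in high cells, and NME1 had the most among genes that fell. IGFBP3, which rose whichever tumour was left out, had 0 matches to ACGTG, as had the score genes ADM, EGLN3 and PDK1. With the form GCGTG counted as well, IGFBP3 had 3 matches and ADM 1, while EGLN3 and PDK1 had 0. Each runs 5′ to 3′ on the gene's strand from 250 bases before to 50 after the RefSeq start (build GRCh38.p14). Capitals mark ACGTG on either strand, so that its reverse complement CACGT is also in capitals and the palindrome CACGTG counts as 2 overlapping matches.
CA9 (chr9:35673678-35673977, plus strand): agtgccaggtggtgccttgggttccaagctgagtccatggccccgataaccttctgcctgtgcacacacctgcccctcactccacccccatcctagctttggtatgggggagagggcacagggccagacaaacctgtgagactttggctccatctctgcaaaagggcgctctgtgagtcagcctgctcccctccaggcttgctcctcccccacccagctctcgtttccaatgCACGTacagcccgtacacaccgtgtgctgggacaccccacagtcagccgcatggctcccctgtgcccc
BNIP3 (chr10:131981874-131982173, minus strand): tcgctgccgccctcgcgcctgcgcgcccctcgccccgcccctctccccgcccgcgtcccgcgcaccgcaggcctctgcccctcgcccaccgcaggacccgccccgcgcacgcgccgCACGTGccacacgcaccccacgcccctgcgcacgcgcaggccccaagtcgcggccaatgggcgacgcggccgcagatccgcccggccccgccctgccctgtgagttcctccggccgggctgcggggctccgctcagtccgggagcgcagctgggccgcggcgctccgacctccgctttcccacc
LDHA (chr11:18394313-18394612, plus strand): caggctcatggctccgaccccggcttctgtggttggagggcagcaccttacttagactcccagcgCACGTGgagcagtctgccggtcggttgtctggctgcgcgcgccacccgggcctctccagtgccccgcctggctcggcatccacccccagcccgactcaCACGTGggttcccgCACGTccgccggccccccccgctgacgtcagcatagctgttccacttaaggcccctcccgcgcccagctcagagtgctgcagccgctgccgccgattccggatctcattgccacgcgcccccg
LOX (chr5:122078210-122078509, minus strand): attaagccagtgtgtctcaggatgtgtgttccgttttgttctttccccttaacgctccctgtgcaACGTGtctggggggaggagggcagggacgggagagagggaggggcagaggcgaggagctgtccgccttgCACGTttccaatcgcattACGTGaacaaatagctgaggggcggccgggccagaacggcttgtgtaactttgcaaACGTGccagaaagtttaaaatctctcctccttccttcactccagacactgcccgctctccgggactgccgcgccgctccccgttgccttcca
PGK1 (chrX:78103998-78104297, plus strand): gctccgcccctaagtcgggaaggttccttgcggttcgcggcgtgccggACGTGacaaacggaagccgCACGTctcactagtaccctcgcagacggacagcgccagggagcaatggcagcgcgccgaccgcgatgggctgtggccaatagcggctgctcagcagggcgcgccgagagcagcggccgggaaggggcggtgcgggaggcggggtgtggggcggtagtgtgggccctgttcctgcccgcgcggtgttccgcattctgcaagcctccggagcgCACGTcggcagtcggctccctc
IGFBP3 (chr7:45921223-45921522, minus strand): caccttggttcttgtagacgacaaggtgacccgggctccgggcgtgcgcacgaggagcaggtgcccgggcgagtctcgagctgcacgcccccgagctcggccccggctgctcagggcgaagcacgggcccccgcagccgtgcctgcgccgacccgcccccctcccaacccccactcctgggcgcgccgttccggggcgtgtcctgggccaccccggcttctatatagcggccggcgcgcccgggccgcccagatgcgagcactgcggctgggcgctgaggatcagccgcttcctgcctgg
NME1 (chr17:51153309-51153608, plus strand): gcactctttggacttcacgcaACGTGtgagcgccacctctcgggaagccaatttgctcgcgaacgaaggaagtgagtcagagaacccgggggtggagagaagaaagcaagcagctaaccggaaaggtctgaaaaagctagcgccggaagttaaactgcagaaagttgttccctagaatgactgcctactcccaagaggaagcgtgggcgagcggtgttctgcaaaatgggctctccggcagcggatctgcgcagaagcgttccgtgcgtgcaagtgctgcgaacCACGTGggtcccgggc

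CA9 held 1 match, BNIP3 held 2, LDHA held 5, LOX held 4, PGK1 held 3 and NME1 held 3. ACGTG was in 12 of the 21 promoters found for the 26 genes that rose, and in 2 of the 4 found for the 5 genes that fell. It was in 3 of the 6 promoters found for the score genes. Of the promoters of all genes tested, 27.8% (2384 of 8588) held it, and 21.4% of all RefSeq promoters (7518 of 35116) did. With the other common form of the core, GCGTG, searched as well on both strands, the shares were 17 of 21 for genes that rose, 4 of 4 for genes that fell and 64.9% of the genes tested. The window is 300 bases long and a match in it is a description of the letters.

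The construct was checked through a row named ratpebp1. It had 11.96, 205 and 125.4 CPM in RKIP tumours 1, 2 and 3 and 0, 0.507 and 0.262 CPM in CTRL tumours 1, 2 and 3. The arms did not overlap, and RKIP tumour 1 was far below the other RKIP tumours. In the RKIP tumours it was counted in 6.45%, 21.7% and 40.7% of thinned high cells and 3.23%, 42.4% and 39.0% of thinned low cells. The share was higher in high cells of tumours 1 and 3 and lower in those of tumour 2.

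The score formed a continuous range in each tumour, so by this score the high cells are a slice of a range. Whether they form a separate type was not tested. The cut for the high class lay at 3.89, 4.37 and 4.56 in RKIP tumours 1, 2 and 3, and at 3.82, 4.48 and 5.15 in CTRL tumours 1, 2 and 3. Within 0.25 of that cut lay 26, 26 and 34 cells of the RKIP tumours and 34, 35 and 25 cells of the CTRL tumours. In RKIP tumour 1 the lowest cell inside the class had a score of 3.89 and the highest outside it 3.87. In CTRL tumour 3 these scores were 5.18 and 5.12. The high class held 62, 69 and 61 cells of the RKIP tumours and 56, 66 and 60 of the CTRL tumours.

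**Figure D1:**
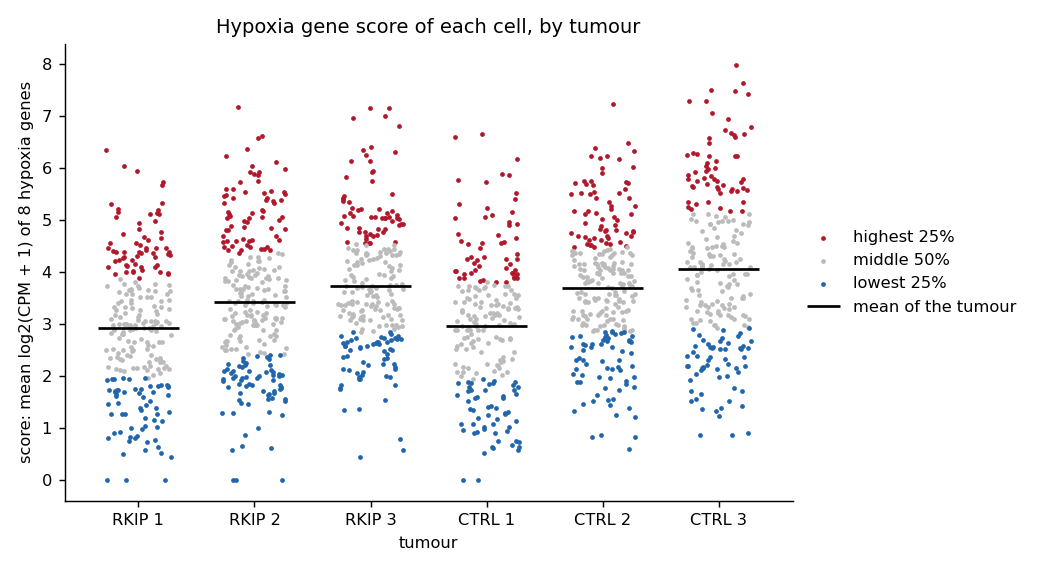
Score of every cell with at least 2000 detected genes (points, mean log2(CPM + 1) of the 8 score genes) in each tumour, coloured by class, with the mean of the tumour as a line. Cells fill the range without a gap, and RKIP tumour 1 and CTRL tumour 1 have the lowest means, 2.93 and 2.96.

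The score genes themselves give the size of the selection. NDRG1, a stress-response protein, had sums per tumour of 649 to 971 CPM in high cells (median 783), against 55.9 to 128.7 CPM in low cells (median 81.9). CA9 had 74.96 to 149.9 CPM in high cells (median 95.1), against 0.258 to 7.53 CPM in low cells (median 2.09). VEGFA, the main growth factor for blood vessels, had 127 to 287 CPM in high cells (median 234), against 6.70 to 15.9 CPM in low cells (median 11.9). The classes were apart in all 6 tumours for each of these genes, which the selection made so.

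ADM, the vasodilator peptide adrenomedullin, had 201 to 538 CPM in high cells (median 436) and 43.7 to 80.8 CPM in low cells (median 53.4). BNIP3, a receptor for mitophagy, had 447 to 1239 CPM in high cells (median 604) and 59.3 to 176 CPM in low cells (median 151). RKIP tumour 1 had the highest BNIP3 value of the high cells. PDK1, a kinase that inhibits pyruvate dehydrogenase, had 29.2 to 98.6 CPM in high cells and 0.386 to 12.1 CPM in low cells. EGLN3, a prolyl hydroxylase that is itself a HIF target, had 17.1 to 86.8 CPM in high cells and 0 to 1.10 CPM in low cells. ANKRD37, an ankyrin-repeat protein, was sparse, with 1.53 to 28.97 CPM in high cells and 0 to 10.9 CPM in low cells, and it was the one score gene whose classes overlapped.

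Many low cells gave no count for a given score gene, and so did many high cells for the sparser ones, such as CA9. After thinning each cell to 20000 counts, which left 369 high and 352 low cells, CA9 was counted in 50.4% of high cells and 2.84% of low cells. NDRG1 was counted in 98.4% of high cells and 47.7% of low cells, and BNIP3 in 96.5% of high cells and 58.8% of low cells. Without thinning, CA9 was counted in 66.6% of high cells and 7.75% of low cells. The table holds no cell type that should lack these genes, so the share that free RNA gives was not measured.

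**Figure D2:**
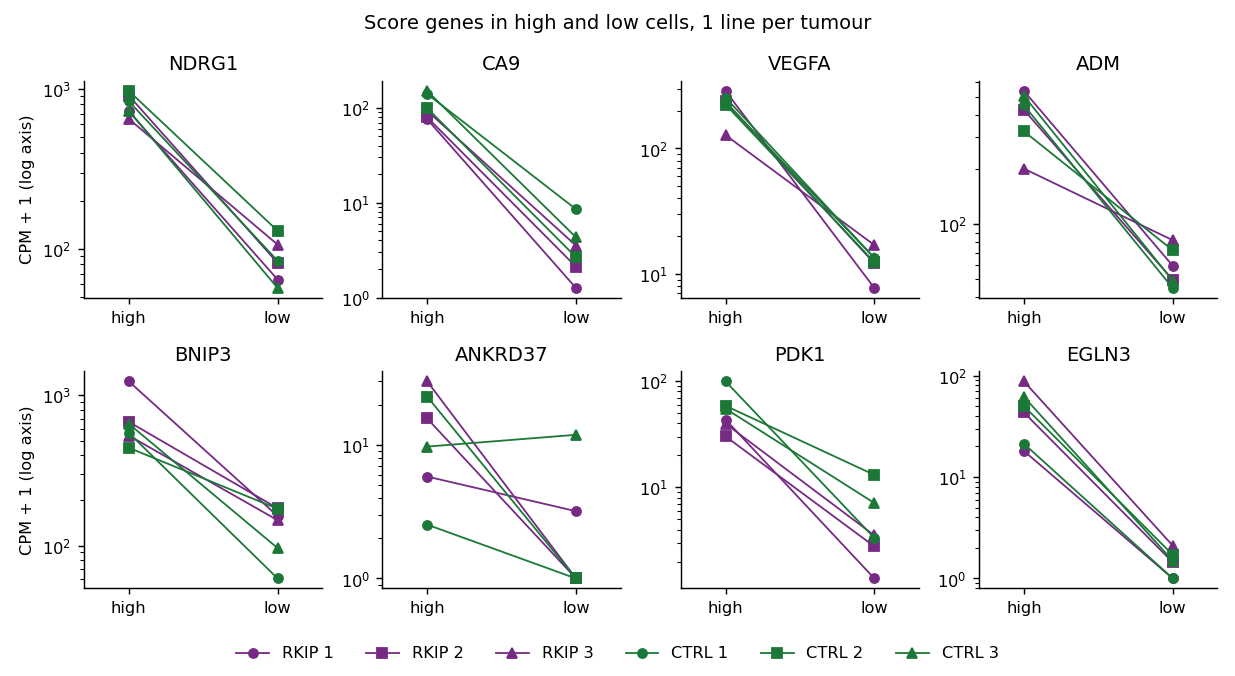
Level of the 8 score genes (CPM + 1, log axis) in the summed high cells (left) and low cells (right), 1 line per tumour (purple RKIP, green CTRL). All lines fall to the right except that of ANKRD37 in CTRL tumour 3, and the order is set by the selection.

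Whether the score genes moved with each other was tested by leaving each out in turn, cutting the classes on the other 7 and testing the gene left out. NDRG1, CA9 and BNIP3 passed. NDRG1 averaged 705 ± 126 CPM in cells high in the other genes and 134.6 ± 45.2 CPM in cells low in them (SD, n = 6 tumours), a log2 fold change of 2.44 (SE 0.16, edgeR quasi-likelihood test, Benjamini-Hochberg adjusted p = 1.89e-04). In that fit 0.121% of 11590 genes were called higher. CA9 averaged 79.8 ± 35.5 CPM in such high cells and 9.44 ± 4.56 CPM in such low cells (3.08 on the log2 scale with SE 0.33, adjusted p = 0.00467 by edgeR, with 0.147% of genes called higher). BNIP3 averaged 588 ± 197 CPM in such high cells and 226 ± 50.5 CPM in such low cells (1.33, SE 0.13, adjusted p = 0.00401, with 0.13% of genes called higher). All 3 were higher in 6 of 6 tumours.

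The other 5 did not pass, although the estimates were positive. ADM had 1.49 (SE 0.30, edgeR adjusted p = 0.0671) with 5 of 6 tumours higher, and VEGFA had 1.66 (SE 0.52, adjusted p = 0.299) with 5 of 6. On cells thinned to 20000 counts ADM (1.45, adjusted p = 0.0173) and VEGFA (1.71, adjusted p = 0.0482) passed. EGLN3 had 2.16 (SE 0.81, adjusted p = 0.402), PDK1 1.14 (SE 0.45, adjusted p = 0.437) and ANKRD37 0.66 (SE 1.07, adjusted p = 0.915). From cell to cell the correlation between score genes was weak at equal depth. The median Spearman correlation over tumours was 0.39 for NDRG1 with BNIP3, 0.32 for NDRG1 with CA9 and 0.26 for CA9 with BNIP3, and at the low end 0.00085 for VEGFA with ANKRD37.

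Outside the score genes, high cells had more transcript of 5 glucose uptake and glycolysis genes (PGK1, LDHA, GPI, SLC2A1 and SLC2A3), 7 further hypoxia-induced genes, 3 mesenchymal and matrix genes and KDM3A, and less of MCM3 among the S phase genes. Of 11540 genes tested on sums per tumour and class, 26 were higher (0.225%) and 5 lower (0.0433%) in high cells by edgeR with the tumour as a block and an adjusted p under 0.05. All 31 went the same way in 6 of 6 tumours. For 27 of them every tumour's high cells lay apart from every tumour's low cells; among all genes tested, 0.589% lay wholly above and 0.477% wholly below. DESeq2 called 199 higher (1.72%) and 137 lower (1.19%), with all 31 among them. Unadjusted, 1092 genes had a p under 0.05, and the median log2 fold change of all genes was 0.02. Leaving out a tumour lowered the counts to 6 higher and 0 lower without RKIP 1, 11 and 0 without RKIP 2, 6 and 0 without RKIP 3, 18 and 1 without CTRL 1, 11 and 0 without CTRL 2, and 4 and 0 without CTRL 3. The 4 were IGFBP3, STC1, PGK1 and LDHA, which passed whichever tumour was left out.

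PGK1, the glycolytic kinase that makes ATP from 1,3-bisphosphoglycerate, had 1049, 973 and 1177 CPM in high cells of RKIP tumours 1, 2 and 3 and 1005, 1104 and 1303 CPM in those of CTRL tumours 1, 2 and 3. Low cells had 381, 453 and 426 CPM in the RKIP tumours and 371, 487 and 291 CPM in the CTRL tumours. The classes did not overlap, and the widest gap was in CTRL tumour 3. The log2 fold change was 1.47 (SE 0.14, edgeR adjusted p = 0.00285).

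LDHA, which turns pyruvate into lactate, had 2138, 2363 and 2271 CPM in high cells of the RKIP tumours and 2202, 2004 and 2678 CPM in those of the CTRL tumours. Low cells had 1205, 1549 and 1426 CPM in the RKIP tumours and 1098, 1298 and 1263 CPM in the CTRL tumours. High cells were higher in every tumour without overlap (0.80 on the log2 scale with SE 0.087, adjusted p = 0.00768 by edgeR). LDHA was counted in 99.7% of the high cells thinned to 20000 counts and in 99.7% of the thinned low cells. PGK1 was counted in 99.5% of thinned high cells and 92.3% of thinned low cells.

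Glucose transporters rose as well. SLC2A1, the widespread transporter GLUT1, averaged 205 ± 41.3 CPM in high cells and 74.5 ± 13.8 CPM in low cells (SD, n = 6; 1.45 on the log2 scale with SE 0.18, adjusted p = 0.00994 by edgeR). SLC2A3, the high-affinity transporter GLUT3, averaged 139 ± 36.1 CPM in high cells and 46.9 ± 15.5 CPM in low cells (1.61, SE 0.27, adjusted p = 0.0448). GPI, which converts glucose 6-phosphate to fructose 6-phosphate, rose by 0.76 (SE 0.12, adjusted p = 0.0338), but had 0.40 with an adjusted p of 0.548 on thinned cells.

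Of 20 glucose uptake and glycolysis genes tested, 5 rose and 0 fell, and 19 had a log2 fold change above 0, against 51.3% of all genes. The median was 0.88 in the list and 0.02 over all genes. PFKFB4, which makes the activator of phosphofructokinase, had 1.74 (SE 0.45) and HK2, the hexokinase of many tumours, 1.72 (SE 0.43) without passing. TPI1 had 0.33 (SE 0.088) and GAPDH 0.34 (SE 0.17), also without passing. PFKM, the muscle form of phosphofructokinase, was the 1 member below 0, at -0.34 (SE 0.53).

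IGFBP3, STC1, LOX, P4HA1 and ERO1A rose among the further hypoxia-induced genes. IGFBP3, which binds insulin-like growth factors, had 477, 577 and 515 CPM in high cells of the RKIP tumours and 523, 332 and 656 CPM in those of the CTRL tumours. Low cells had 128.1, 158.8 and 93.9 CPM in the RKIP tumours and 71.2, 120.1 and 52.1 CPM in the CTRL tumours. The classes did not overlap (2.36 on the log2 scale with SE 0.27, adjusted p = 0.00841 by edgeR). STC1, the secreted glycoprotein stanniocalcin 1, averaged 632 ± 128 CPM in high cells and 213.5 ± 47.6 CPM in low cells (1.57, SE 0.15, adjusted p = 0.00285).

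LOX, which cross-links collagen and elastin, averaged 93.9 ± 41.2 CPM in high cells and 14.4 ± 6.83 CPM in low cells (2.75, SE 0.34, edgeR adjusted p = 0.00994). P4HA1, a subunit of the collagen prolyl hydroxylase, averaged 118 ± 30.7 CPM in high cells and 40.1 ± 9.90 CPM in low cells (1.55, SE 0.21, adjusted p = 0.0135). ERO1A, which drives disulphide formation in the endoplasmic reticulum, averaged 134.1 ± 21.1 CPM in high cells and 45.4 ± 8.20 CPM in low cells (1.56, SE 0.23, adjusted p = 0.0237). On thinned cells LOX had 1.76 with an adjusted p of 0.052, just past the threshold, while P4HA1 (1.64) and ERO1A (1.67) still passed. Of 6 fits that left out a tumour, LOX passed in 3, and P4HA1 and ERO1A in 1 each.

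Of 33 further hypoxia-induced genes tested, 7 rose and 0 fell, with 32 above 0 and a median of 1.18. Besides IGFBP3, STC1, LOX, P4HA1 and ERO1A these were TMEM45A, a membrane protein (2.81, SE 0.42, edgeR adjusted p = 0.0262, but 1.85 with an adjusted p of 0.0554 on thinned cells), and BNIP3L, the mitophagy receptor related to BNIP3 (1.15, SE 0.19, adjusted p = 0.034). On thinned cells 12 of 30 rose, among them HILPDA, a lipid droplet protein (3.14), DDIT4, an inhibitor of mTORC1 (2.89), ANGPTL4, an inhibitor of lipoprotein lipase (1.86), and CA12, a second carbonic anhydrase (1.80). The lysyl hydroxylases PLOD1 (1.07) and PLOD2 (1.1996) and the lysyl oxidase relative LOXL2 (1.23) rose there too. LONP1, a mitochondrial protease, was the 1 member below 0 at full depth, at -0.09.

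Among the genes that sense oxygen or control HIF, KDM3A, a histone H3 lysine demethylase, rose with 166 ± 70.0 CPM in high cells and 63.3 ± 27.1 CPM in low cells (1.39, SE 0.18, edgeR adjusted p = 0.0108), and its classes overlapped between tumours. It was the 1 gene called of 14, of which 12 were above 0 with a median of 0.56. HIF1A itself had 380 ± 71.4 CPM in high cells and 419 ± 88.3 CPM in low cells (-0.14, SE 0.13, adjusted p = 0.81). EGLN1, the main oxygen sensor of the family, had 0.84 (SE 0.46), EPAS1, which encodes HIF-2α, 1.01 (SE 0.46), and MXI1, a MYC antagonist, 1.204 (SE 0.29), and none of them passed.

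Further genes that rose belong to other functions. CCL26, the chemokine eotaxin-3, had the largest estimate at full depth, with 29.7 to 272 CPM in high cells (median 113) and 4.13 to 25.6 CPM in low cells (median 10.2; 3.53, SE 0.56, edgeR adjusted p = 0.0338). CTRL tumour 2 stood apart, with 29.7 CPM in high cells and 25.6 CPM in low cells. CCL26 was counted in 22.5% of thinned high cells and 7.10% of thinned low cells. The top cell held up to 64.7% of a CCL26 sum (median over sums 43.5%). For TMEM45A this share was up to 80% (median 33.8%) and for LOX up to 70.9% (median 29.2%). On thinned cells CCL26 had 2.81 with an adjusted p of 0.0503 by edgeR, and it passed in 1 of 6 fits that left out a tumour. MT1X, a metal-binding metallothionein, averaged 147 ± 54.5 CPM in high cells and 32.8 ± 6.15 CPM in low cells (2.09, SE 0.27, adjusted p = 0.0108). FAM13A had 1.72 (SE 0.28, adjusted p = 0.0338), but 1.23 with an adjusted p of 0.0655 on thinned cells. TMEM45A, FAM13A, SLC2A3, GPI, C4orf3, TIMP1, MALAT1 and TMSB10 passed in 0 of 6 fits that left out a tumour. The same held for ESCO2, MCM3, NME1 and HMGB1, which were lower in high cells. BNIP3L and DNMT1 passed in 1 of 6 such fits each.

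COPZ1, a coat protein of Golgi vesicles, had 1.96 (SE 0.29, edgeR adjusted p = 0.0237). In 1 of its 12 sums a single cell held 92.4% of the counts, and the median share of the top cell over the sums was 50.6%. On thinned cells COPZ1 had 1.24 with an adjusted p of 0.314 by edgeR. FTL, the ferritin light chain, averaged 9473 ± 2475 CPM in high cells and 4908 ± 751 CPM in low cells (0.92, SE 0.11, adjusted p = 0.00994). ERRFI1, a feedback inhibitor of the EGF receptor, averaged 1166 ± 375 CPM in high cells and 610 ± 120 CPM in low cells (0.90, SE 0.11, adjusted p = 0.00994). The other calls outside the lists were C4orf3 (1.15), PSAP, the precursor of the saposins (0.71), MALAT1, a nuclear long non-coding RNA (0.49), and TMSB10, an actin-binding peptide (0.41). FTL, PGK1, LDHA, TMSB10, HMGB1 and BNIP3 have near-identical processed copies in the genome among which reads could be split, so their levels are uncertain to that extent. FTL, ERRFI1, C4orf3, PSAP, MALAT1 and TMSB10 were named after their values were seen.

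In the mesenchymal and matrix list, 3 of 24 genes rose and 0 fell, with a median of 0.45. FN1, which encodes the matrix glycoprotein fibronectin, averaged 1033 ± 139 CPM in high cells and 506 ± 139 CPM in low cells (1.06, SE 0.15, edgeR adjusted p = 0.021). VIM, the intermediate filament vimentin, averaged 5376 ± 800 CPM in high cells and 3740 ± 529 CPM in low cells (0.52, SE 0.071, adjusted p = 0.0145). TIMP1, an inhibitor of matrix metalloproteases, averaged 1913 ± 51.4 CPM in high cells and 1364 ± 137 CPM in low cells (0.49, SE 0.079, adjusted p = 0.0338). MMP1, the interstitial collagenase, had 196 ± 431 CPM in high cells and 6.32 ± 4.89 CPM in low cells and did not pass.

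**Figure D3:**
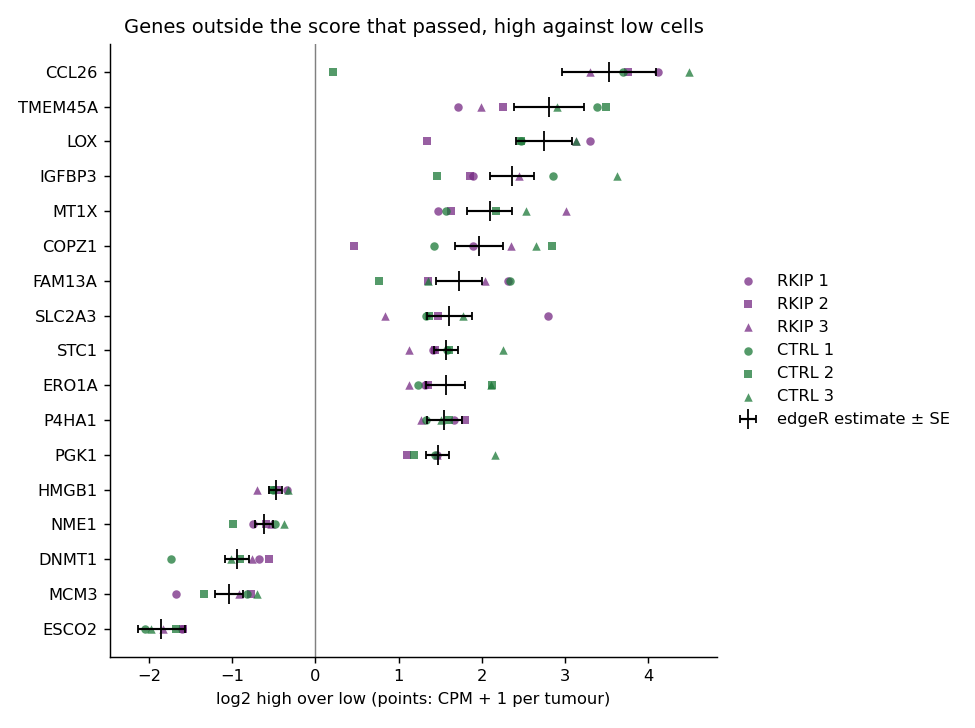
Log2 high over low for the 12 largest rises and the 5 falls among genes outside the score that passed (black bars, edgeR estimate ± SE), with the ratio of CPM + 1 in each tumour as points (purple RKIP, green CTRL). All tumours lie on the same side of 0 for each gene; CCL26 in CTRL tumour 2 is close to 0, at 0.21.

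The 5 genes that fell were ESCO2, MCM3, DNMT1, NME1 and HMGB1, of which MCM3 is in the S phase list. ESCO2, which acetylates cohesin during S phase, averaged 15.9 ± 2.97 CPM in high cells and 58.4 ± 16.7 CPM in low cells (-1.85 on the log2 scale with SE 0.28, adjusted p = 0.0271 by edgeR). MCM3, a subunit of the replicative helicase, averaged 138 ± 14.4 CPM in high cells and 291 ± 79.3 CPM in low cells (-1.04, SE 0.17, adjusted p = 0.0338). DNMT1, the maintenance DNA methyltransferase, had 603, 574 and 484 CPM in high cells of the RKIP tumours and 609, 676 and 341 CPM in those of the CTRL tumours. Low cells had 964, 844 and 824 CPM in the RKIP tumours and 2040, 1265 and 693 CPM in the CTRL tumours. The classes were apart, and the low cells of CTRL tumour 1 were the highest of all (-0.94, SE 0.15, adjusted p = 0.0292).

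NME1, a nucleoside diphosphate kinase also known for its link to metastasis, averaged 495 ± 73.8 CPM in high cells and 757 ± 62.5 CPM in low cells (-0.62, SE 0.11, edgeR adjusted p = 0.0474). HMGB1, an abundant chromatin protein, averaged 951 ± 90.4 CPM in high cells and 1328 ± 157 CPM in low cells (-0.48, SE 0.083, adjusted p = 0.0474). On thinned cells 16 genes were lower (0.191%), among them MKI67, the proliferation marker Ki-67 (-0.75), BIRC5, the mitotic protein survivin (-0.95), and CDC6, which loads the helicase at origins (-1.35). MCM3 (adjusted p = 0.238) and ESCO2 (adjusted p = 0.18) did not pass there.

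Cycle genes as lists stood low in the high cells. Of 27 S phase genes tested, 1 fell, 0 rose and 27 were below 0, with a median of -0.85, and of 30 G2 and M phase genes 0 were called and 28 were below 0, with a median of -0.56. Over all genes the median was 0.02. Per tumour the median S phase score at equal depth, in mean log2(CPM + 1), was 1.302 ± 0.145 in high cells and 1.76 ± 0.246 in low cells (SD, n = 6; exact two-sided sign-flip test, p = 0.0312, the smallest that 6 tumours allow, adjusted over 4 measures 0.0417). The G2 and M phase score was 2.13 ± 0.239 in high cells and 2.77 ± 0.292 in low cells, with the same exact p, and both were lower in high cells of 6 of 6 tumours. When the classes were cut only among cells below the median of the cycle score, 8 genes were higher and 0 lower, and 6 of the 8 were among the 26. Estimates of several genes that no longer passed were of similar size there, with 1.52 for STC1, 1.55 for SLC2A1, 2.09 for MT1X, 1.84 for P4HA1 and 1.71 for ERO1A, while DNMT1 had -0.38 and HMGB1 -0.24. ESCO2 was not tested there.

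The lists on other functions held no gene called at full depth. Of 38 cytosolic ribosomal protein genes 0 were called (median -0.04), and of 38 nuclear respiratory chain genes 0 were called, 29 of them below 0 (median -0.13), where 51.3% of all genes lay above 0. The integrated stress and unfolded protein response list (17 tested) had a median of 0.46 with 12 above 0 and 0 called; its chaperone HSP90B1 had 0.52 (SE 0.11) and passed on thinned cells (0.48, edgeR adjusted p = 0.0405). The list of early response and dissociation stress genes (19 tested) had a median of 0.28 with 14 above 0 and 0 called, and EGR1, a serum-induced transcription factor, had 0.92 and passed on thinned cells (0.90, adjusted p = 0.0316). Medians were 0.22 for 10 angiogenic factors, 0.13 for 13 inflammatory cytokines, 0.03 for 10 p53 targets, -0.07 for 24 cholesterol synthesis genes and -0.17 for 23 interferon-stimulated genes, with 0 called in each. PEBP1 had -0.04 (SE 0.14), BACH1, a transcription factor linked to metastasis, 0.42 (SE 0.20) and CXCR4, a chemokine receptor, 1.28 (SE 0.76), without passing, and their list of 13 had a median of -0.01.

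**Figure D4:**
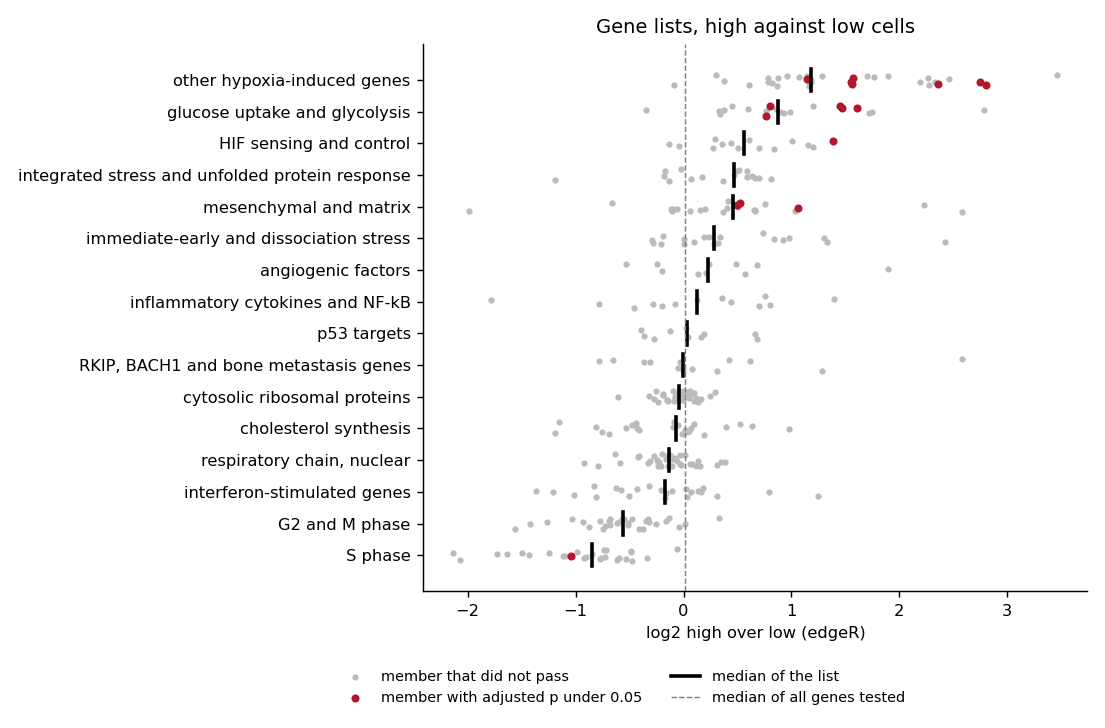
Log2 high over low (edgeR) of each tested member of the lists with at least 10 tested genes; red points passed at an adjusted p under 0.05, black bars are list medians and the dashed line is the median of all genes, 0.02. The 3 lists on hypoxia and glycolysis lie right of the line (1.18, 0.88 and 0.56) and the 2 cycle lists lie left of it (-0.56 and -0.85).

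Detected genes per cell moved with the class in 6 of 6 tumours. Depth did so in all but RKIP tumour 1, where low cells had the higher median count. The median count per cell was 82393 ± 24722 in high cells and 65412 ± 23666 in low cells (SD, n = 6), higher in high cells of 5 of 6 tumours (exact sign-flip p = 0.125). Detected genes per cell were 4354.5 ± 709 in high cells and 3904 ± 751 in low cells, higher in 6 of 6 (exact p = 0.0312, adjusted 0.0417). With the classes cut within 4 bins of total count, 31 genes were higher and 3 lower, and 24 of the 26 and 1 of the 5 were among them. With every cell thinned to 20000 counts and the score computed from the thinned counts, 53 of 8382 genes were higher (0.632%), and 20 of the 26 and 3 of the 5 were among the calls. Of the high cells with enough counts, 80.2% were also high after thinning and 0 were low.

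Few markers of other cell types were among the rows of the table. The host is a mouse, while the markers are human genes and the builds named are human. Their absence therefore does not measure host cells. Of 12 leukocyte markers 2 were in the table (CSF1R and LAPTM5), with summed levels of 61.8 to 125.7 CPM in high cells and 68.8 to 226 CPM in low cells. Of 10 endothelial markers 3 were in it, at 11.05 to 50.3 CPM in high cells and 9.003 to 29.4 CPM in low cells, and of 10 fibroblast markers 2, at 0.639 to 5.21 CPM in high cells and 0.888 to 3.79 CPM in low cells. Of 14 muscle, fat and keratinocyte markers 1 was in it, the keratin KRT10, at 112 to 169 CPM in high cells and 90.6 to 164 CPM in low cells. PTPRC, CD68, CDH5, VWF, COL1A2, DCN, ACTA1 and CKM are not among the rows of the table, which holds genes counted in at least 20 cells. The part of other cells in the results was not tested.

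The cells between the 2 classes gave a further view, since they entered neither class, although they come from the same tumours. Between the upper middle 25% and the lower middle 25% of cells 0 of 11888 genes were called (0.0%), with 542 at an unadjusted p under 0.05, and DESeq2 called 15. Of the 26 genes that rose in the high cells, 24 were higher in the upper middle cells, with a median log2 fold change of 0.44, against 49.1% of all genes and a median of -0.01. LOX had 1.16, IGFBP3 0.78, P4HA1 0.76, STC1 0.43, PGK1 0.44 and LDHA 0.30 there, and KDM3A had -0.59. The 5 genes that fell had a median of -0.09, with 1 above 0.

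Levels over the 4 bands of 25% of cells, ordered by score, went in steps for several genes. PGK1 averaged 404, 535, 728 and 1109 CPM from the lowest to the highest band, LDHA 1315, 1505, 1852 and 2290 CPM, and STC1 214.9, 305, 421 and 635 CPM. TIMP1 was highest in the upper middle band, with 1372, 1454, 2158 and 1925 CPM. NME1 averaged 761, 683, 591 and 498 CPM, and HMGB1 1336, 1241, 1061 and 957 CPM. These are descriptions of the order set by the score.

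**Figure D5:**
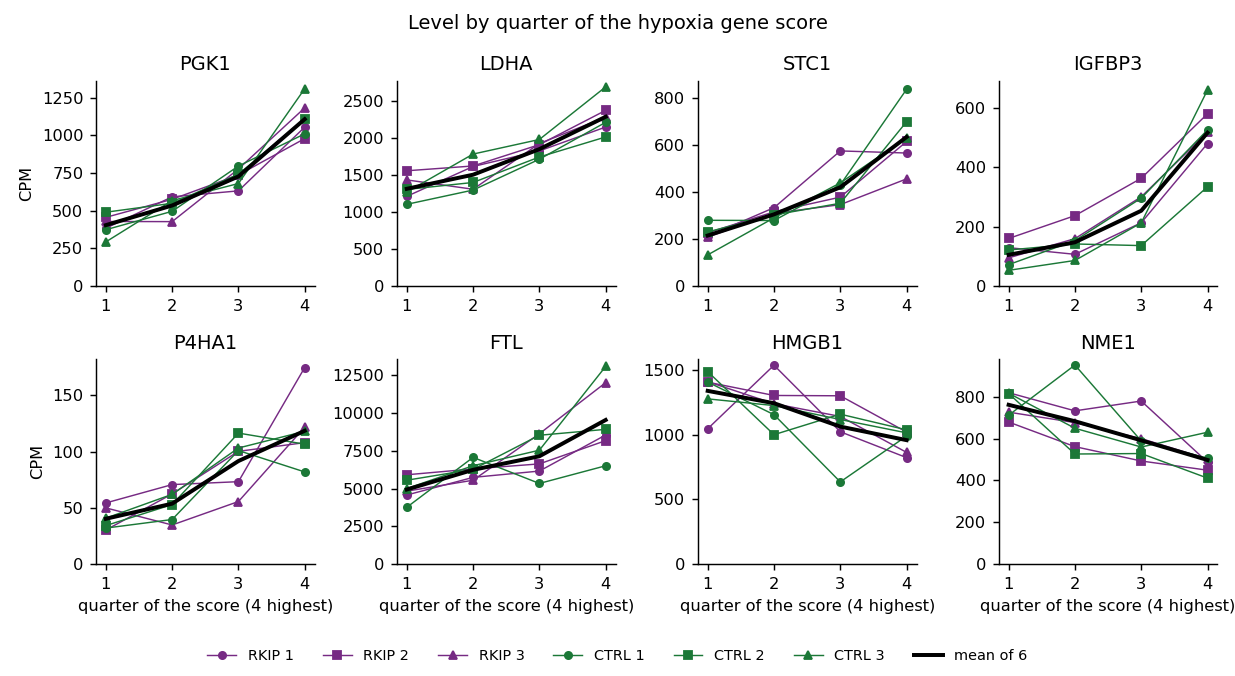
Level (CPM) of 8 genes outside the score in the 4 bands of the score, from lowest (1) to highest (4), for each tumour (purple RKIP, green CTRL) and as the mean of 6 tumours (black). PGK1 goes through 404, 535, 728 and 1109 CPM, and NME1 through 761, 683, 591 and 498 CPM.

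Whether the difference between high and low cells depended on RKIP was tested with an interaction term. For the difference of differences 0 of 11540 genes were called by edgeR (0.0%), with 398 at an unadjusted p under 0.05, and DESeq2 called 11, among them ANGPTL4, the cyclin CCNA2 and the mitotic kinase PLK1. A p that misses the threshold does not show that the arms are alike. As the mean over tumours of log2 high over low (CPM + 1), PGK1 had 1.34 in RKIP tumours and 1.59 in CTRL tumours, and IGFBP3 2.06 in RKIP tumours and 2.65 in CTRL tumours.

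The score was compared between the arms over tumours. Its mean per tumour was 2.93, 3.43 and 3.74 in RKIP tumours 1, 2 and 3 and 2.96, 3.70 and 4.06 in CTRL tumours 1, 2 and 3. The RKIP tumours averaged 3.36 ± 0.410 and the CTRL tumours 3.57 ± 0.561, a difference of -0.21 (SD, n = 3; exact two-sided permutation p = 0.7, where 3 against 3 cannot go below 0.1). The mean score was lower in the RKIP tumour at each of the 3 numbers. Taking equal numbers as pairs, the exact sign-flip test gave p = 0.25, the smallest that 3 pairs allow. Gene levels did not show a pairing by number, while median counts per cell were close by number, so this test rests on an assumed pairing. The permutation test ignores the numbers, so spread between experiments enters its error. With only 1 tumour left out, the difference between the arms was 0.0112 without RKIP tumour 1 and 0.0371 without CTRL tumour 3. Above one cut for all tumours, a score of 4.38, lay 14.3%, 24.9% and 30.3% of cells in RKIP tumours 1, 2 and 3 and 12.2%, 27.8% and 39.7% of those in CTRL tumours 1, 2 and 3. The tumours of experiment 1 were lowest in both arms, and they also had the fewest detected genes per cell, 3390 in RKIP tumour 1 and 3228 in CTRL tumour 1, against 4377 to 5059 in the other tumours. With both left out, 3 genes were higher and 0 lower in high against low cells.

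Of 14527 genes compared between whole RKIP and CTRL tumours 0 were called by edgeR (0.0%), with 546 at an unadjusted p under 0.05, and DESeq2 called 21, none of them a score gene. CA9 had 20.6, 26.3 and 30.9 CPM in RKIP tumours and 45.6, 47.1 and 53.6 CPM in CTRL tumours, without overlap (-0.91 on the log2 scale with SE 0.24, adjusted p = 0.9999 by edgeR). PDK1 had 13.2, 14.5 and 17.4 CPM in RKIP tumours and 36.7, 32.8 and 24.9 CPM in CTRL tumours, also without overlap (-1.07, SE 0.29, adjusted p = 0.9999). Of all genes 4.36% had the 3 RKIP tumours wholly below the 3 CTRL tumours, and 4.44% had them wholly above. NDRG1 had 276, 354 and 317 CPM in RKIP tumours and 461, 483 and 337 CPM in CTRL tumours, which overlapped. The 8 score genes had a median of -0.32, against 0.00 over all genes, and BNIP3 was the one member above 0 (0.27, SE 0.23), through RKIP tumour 1, without which it had -0.04.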

How the data were processed

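Single cells were captured on Fluidigm C1 HT chips. The authors deposited whole-number counts per gene and cell, with no normalization. Trim Galore, STAR and featureCounts are named, and the builds hg38 and hg19, per the submitters' processing notes; versions, strand and molecular identifiers are not given in the sources used here. Cells with at least 2000 detected genes were kept. Counts were summed per tumour and band of 25% of cells by score and tested with edgeR 4.0.16 in R 4.3.3 (filterByExpr, TMM, robust quasi-likelihood test, tumour as a block, Benjamini-Hochberg adjustment, threshold 0.05). Sums held 4193051 to 8133126 counts. DESeq2 1.42.0 was an alternative, as were thinning to 20000 counts, other cuts and filters, and leaving out tumours. Counting intervals are exact and cover counting error only. Named genes passed in the same direction in 6 tumours at an average log2 CPM of at least 4, taking the 12 largest rises and falls, besides list members. The members and lists were chosen with earlier results of these data known. Doublets were not called. Wells are positions on chips: 551 positions were used by more than one tumour of an arm, with 0 identical cells. Over 6888 genes, deviations of RKIP and CTRL tumours with the same number correlated at 0.0898, -0.0258 and 0.0537, so gene levels did not show a pairing by number. Median counts per cell were 104106, 57164 and 78894 in RKIP tumours 1, 2 and 3. In CTRL tumours 1, 2 and 3 they were 105388, 56641 and 75510, close to the RKIP tumour of the same number. Why they were close was not tested. The main fit between the arms did not use the numbers, so spread between experiments enters its error.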

Additional observations from a re-analysis of the deposited data

Results flagged for a closer look

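Among 31 genes whose ratio was examined for a tumour far from the other 5, 2 stood out, and chance alone does so for about 1 in 20. CCL26, the chemokine eotaxin-3, had a log2 high over low (CPM + 1) of 0.21 in CTRL tumour 2, against 3.30 to 4.49 in the others. PGK1 had 2.16 in CTRL tumour 3, against 1.10 to 1.47 in the others. The causes were not tested.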

How the results depend on the processing

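None of the 31 genes called between high and low cells changed direction in an alternative that tested it (ESCO2 was not tested among cells below the median cycle score), but their number moved, from 26 higher and 5 lower. DESeq2 called 199 higher and 137 lower, and cells thinned to 20000 counts gave 53 higher and 16 lower. Counts were 25 and 3 without a filter on low counts, 18 and 1 with cells of at least 1000 detected genes, 10 and 0 with the highest and lowest 50% of cells, and 10 and 2 with 10%. Classes cut within 4 bins of total count gave 31 and 3, cells below the median cycle score 8 and 0, and score genes scaled to SD 1 gave 20 and 0. Chosen after seeing the data, classes cut within each chip column gave 29 and 3, with 19 of the 26 and 1 of the 5 among them. In the main classes the share of high cells differed between chip columns of a tumour. Its lowest value was 4.55% to 10.7% by tumour, and its highest 39.1% to 50%. Leaving out both tumours of experiment 1, also chosen after seeing the data, gave 3 and 0. Leaving out 1 tumour gave 4 to 18 higher and 0 to 1 lower. DESeq2 called 11 genes for the interaction and 15 between the middle bands, where edgeR called 0. Between RKIP and CTRL tumours DESeq2 called 21, and leaving out 1 tumour gave 0 to 1. The fit with the replicate number as a block called 1 gene there, ratpebp1, and 0 for the interaction. That fit rests on an assumed pairing by number. Among score genes left out of the score, VEGFA (1.71) and ADM (1.45) passed on thinned cells and not at full depth; ANKRD37 could not be fitted there. Over RKIP and CTRL tumours, leaving out 1 tumour moved the difference in mean score between -0.51 and 0.0371, the log2 difference of BNIP3 between -0.036 (without RKIP tumour 1) and 0.46, and that of ANKRD37 between -1.01 and 0.34 (without CTRL tumour 2), with 0.19 without RKIP tumour 1. The cause of these changes was not tested. Some sums rest on few cells. Among the called genes a single cell held up to 92.4% of a sum (COPZ1), and for the score genes CA9, ANKRD37 and PDK1 up to 100%.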
